A study of Mus musculus with 6 samples.

Results

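Interleukin 6 (IL-6) and its relatives are small secreted proteins that act on cells through a shared signalling chain, gp130, which Il6st encodes. The genes described here are 3 ligands (Il6, Lif and Osm), 4 receptor chains (Il6ra, Il6st, Osmr and Lifr), the transcription factor Stat3 and its inhibitor Socs3. They were taken by symbol from the deposited table of gene counts by a rule that uses no measured value, although the set was proposed with earlier results of these data known. All 9 were found among 52110 lines with a gene symbol. Expression was measured by RNA sequencing of muscle from wild-type (WT) mice of the strain written c57b6l. The mice of 3 libraries were treated with the agent labelled click and those of the other 3 with the agent labelled EDC. The labels do not say what the agents are, and name no muscle, dose, time, age or sex. Neither group is untreated, so each value is click relative to EDC.

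IL-6 binds its own receptor chain, Il6ra, before it engages gp130, whereas oncostatin M (Osm) and leukaemia inhibitory factor (Lif) bind gp130 in a pair with Osmr or Lifr. Each complex activates Janus kinases, which phosphorylate Stat3. Phosphorylated Stat3 enters the nucleus and switches on Socs3, whose product then binds gp130 and damps the signal. In muscle these cytokines are released by immune cells, fibroblasts and the fibres themselves after injury and exercise, and act on satellite cells and fibres as well as on immune cells.

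Reads per library numbered 34472421 to 39305779. Muscle fibre markers (8 of 8 detected in every library) summed to 90050 to 188500 CPM (counts scaled to a common library size, so that levels can be compared between libraries), so that genes defining muscle fibres were abundant in all 6. Replicate 1 of each group had reads of the female transcript Xist and the other 4 libraries had none. Reads of mt-Atp6 relative to its near-identical copy Gm10925 gave a ratio between 0.927 and 0.938 in 3 libraries (replicate 2 of click, replicates 1 and 3 of EDC). The remaining 3 had ratios between 0.162 and 0.166, and this split is called the mt-Atp6 read class. Values within these divisions are given for each member. In bulk muscle, fewer cells that express a gene and less RNA per cell cannot be told apart.

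None of the members passed the edgeR quasi-likelihood threshold of 0.05 after Benjamini-Hochberg adjustment over 15797 genes, where 1 gene in all, Gdpd3 (0.00633%), was called. At an unadjusted p under 0.05, 3 of the 8 members tested (Lif, Osm and Socs3) were lower in click, against 8.0% of all genes tested, and none was higher, against 7.22%. The DESeq2 Wald test called no member, and it called 2.27% of all genes as lower in click and 1.56% as higher. The ninth member, Il6, had too few reads for the test. Of the 8, 6 had a negative and 2 a positive log2 fold change, and the median was -0.70 against 0.02 for all genes tested. The members with the largest differences were the ligands and Socs3. Il6st, the signalling chain itself (0.46), and Lifr (0.44) lay on the other side of 0. Without EDC replicate 3 these 2 values were 0.17 and 0.0025.

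The sequence upstream of the RefSeq start of Il6, Lif and Socs3 is shown because these 3 are inducible members whose levels were lowest in the same 2 libraries, click replicates 1 and 2. Osm, Il6ra and Stat3 had this pattern too but are named only. The stretches come from RefSeq on the GRCm38.p6 build (mm10) and are cut where an exon that GENCODE annotates begins. The Socs3 stretch lies inside the span of the GENCODE gene, between 2 annotated exons, upstream of the start that RefSeq uses. Capitals mark matches, on either strand, to letters known to be bound by STAT factors (TTCNNNGAA), AP-1 (TGANTCA), C/EBP (TTGNGCAA) or NF-kB, searched in the whole 250 bases before each RefSeq start. The Il6 stretch is chr5:30012864-30013113 on the plus strand, that of Lif is chr11:4257318-4257556 on the plus strand, and that of Socs3 is chr11:117969452-117969616 on the minus strand.
Il6: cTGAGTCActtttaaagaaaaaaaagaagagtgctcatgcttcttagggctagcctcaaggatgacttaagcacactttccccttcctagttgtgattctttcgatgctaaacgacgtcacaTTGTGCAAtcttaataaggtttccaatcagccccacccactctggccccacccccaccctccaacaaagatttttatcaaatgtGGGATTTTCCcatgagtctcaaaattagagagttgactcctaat
Lif: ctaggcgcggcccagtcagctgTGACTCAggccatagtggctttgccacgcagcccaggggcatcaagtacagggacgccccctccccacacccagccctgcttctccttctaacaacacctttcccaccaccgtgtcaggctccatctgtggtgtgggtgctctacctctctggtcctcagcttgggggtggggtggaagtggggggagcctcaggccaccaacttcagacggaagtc
Socs3: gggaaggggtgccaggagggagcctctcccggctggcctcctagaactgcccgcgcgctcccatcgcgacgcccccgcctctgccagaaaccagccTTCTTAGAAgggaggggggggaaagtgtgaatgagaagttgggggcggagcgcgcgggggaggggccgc

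The Il6 stretch held an AP-1 match 249 to 243 bases before the start, a C/EBP match at 128 to 121 and an NF-kB match at 44 to 35. Lif held an AP-1 match at 228 to 222, and Socs3 a STAT match, TTCTTAGAA, at 154 to 146. Of 32851 promoter windows of the same length, 7.02% held the STAT letters, 6.75% those of AP-1, 2.61% those of C/EBP and 3.90% the NF-kB motif. The whole windows of Il6ra, Il6st, Osmr, Lifr and Stat3, exon bases included, held none of the 4. A match describes letters and is no evidence of binding in this muscle.

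Il6, the founding ligand (mm10 chr5:30013114-30019981, plus strand), was detected in 4 of 6 libraries and was at the edge of detection in click. Click replicates 1 and 2 held 0 reads, which allows a level of up to 0.109 CPM in each (3 reads, counting error only), and click replicate 3 held 9 reads (0.228 CPM). EDC replicates 1, 2 and 3 held 45, 3 and 57 reads, or 1.03, 0.0830 and 1.14 CPM. EDC replicates 1 and 3 were thus alone in having more than 10 reads, and click replicate 3 lay above EDC replicate 2, so the groups overlapped. The default filter requires about 0.277 CPM in 3 libraries, which Il6 did not meet. With no such filter its log2 fold change was -3.16 (SE 1.42, edgeR adjusted p = 0.454). The difference in mean log2 CPM was -4.41 within the higher mt-Atp6 read class (click replicate 2 against EDC replicates 1 and 3). It was -0.15 within the lower class (click replicates 1 and 3 against EDC replicate 2). With 0 reads in click replicate 2, the size of -4.41 depends on the prior count of 2 that is added before the log is taken.

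Lif, a ligand best known for keeping stem cells undifferentiated and for its release by injured muscle and nerve (chr11:4257557-4272514, plus strand), was the tested member with the smallest p. It had 4, 2 and 19 reads in click (0.145, 0.0728 and 0.481 CPM) and 69, 40 and 45 in EDC (1.58, 1.11 and 0.896 CPM). All 3 click values lay below all 3 EDC values, and Lif was the only member whose groups did not overlap; 12.4% of all genes tested were separated in that direction and 9.84% in the other. The mean was 0.233 ± 0.218 CPM in click and 1.19 ± 0.351 in EDC (SD, n = 3), 4.90-fold apart, with a log2 fold change of -2.29 (SE 0.73 and, by edgeR, adjusted p = 0.298). Without click replicate 3 the log2 fold change was -3.41, and without click replicate 2 it was -1.93. The difference in mean log2 CPM was -3.30 within the higher read class and -1.83 within the lower. Click replicate 2 held 2 reads, so the size of -3.30 also depends on the prior count.

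Osm, a ligand made mainly by macrophages, neutrophils and T cells, lies just before Lif at chr11:4236420-4241026 on the same strand. It had 3, 8 and 31 reads in click (0.109, 0.291 and 0.785 CPM) and 68, 24 and 128 in EDC (1.56, 0.664 and 2.55 CPM). EDC replicates 1 and 3 were the highest, and click replicate 3 lay above EDC replicate 2, so that the groups overlapped in that 1 place. The means were 0.395 ± 0.350 and 1.59 ± 0.942 CPM (SD, n = 3), with a log2 fold change of -1.97 (SE 0.80 and, by edgeR, adjusted p = 0.318). Without click replicate 3 it was -2.97, and without EDC replicate 3 it was -1.47. The difference was -2.57 within the higher read class and -0.96 within the lower. All 3 ligands therefore ran from the lowest values in click replicates 1 and 2 to the highest in EDC replicates 1 or 3.

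**Figure D1:**
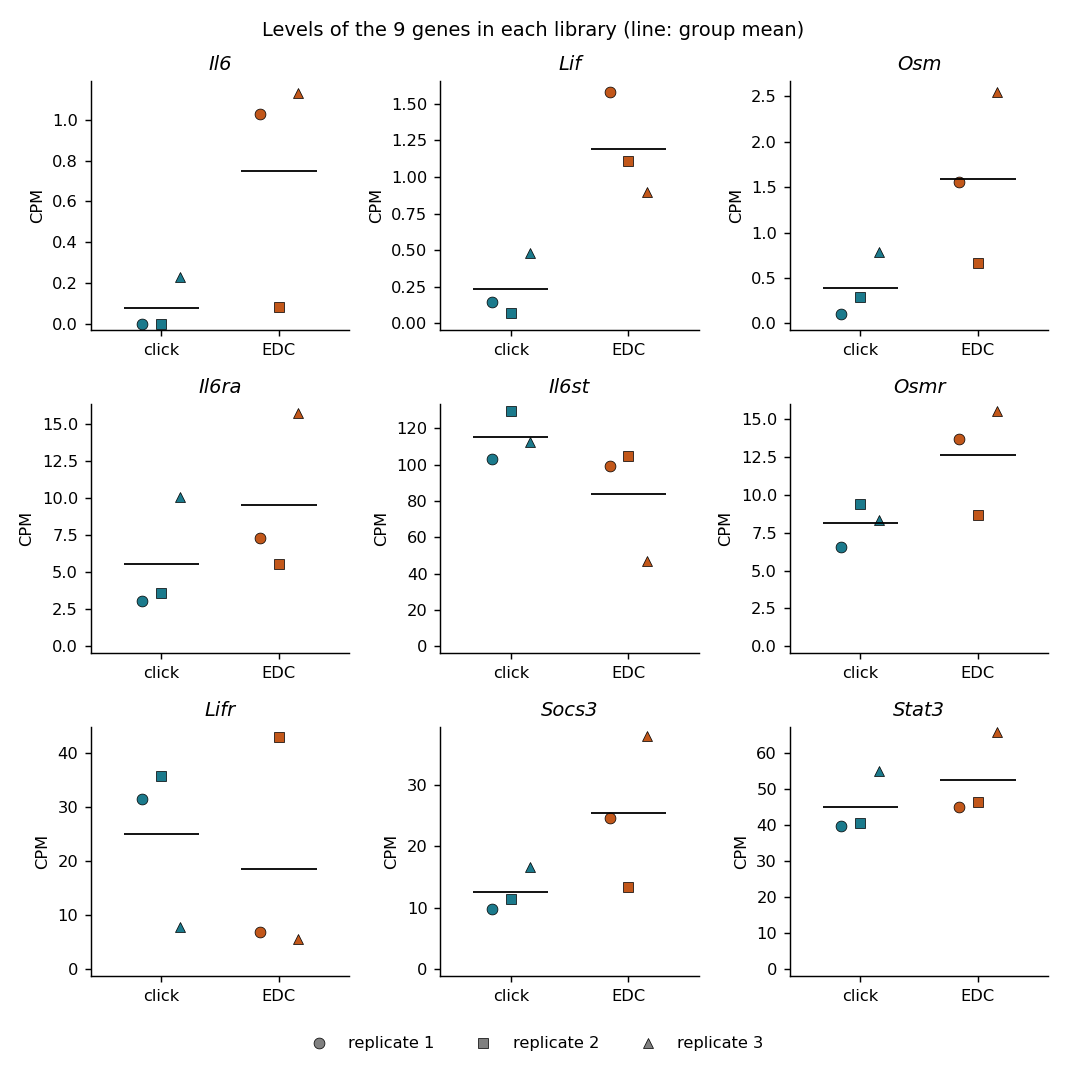
Each panel plots the level of a gene in CPM (linear axis) for the 3 click and 3 EDC libraries, with the symbol giving the replicate and the line the group mean. Lif is the gene whose groups do not overlap, EDC replicates 1 and 3 are highest for Il6, Osm, Osmr and Socs3, and Lifr is high in click replicates 1 and 2 and EDC replicate 2.

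Among the receptor chains, Il6st (chr13:112464070-112510086, plus strand) had the highest level. Its level was 103, 129 and 112 CPM in click and 99.0, 104.7 and 47.0 CPM in EDC. EDC replicate 3 stood apart at less than any other library, while the other 5 lay within a narrow band and overlapped. The log2 fold change was 0.46 (SE 0.32, edgeR adjusted p = 0.482). Without EDC replicate 3 it was 0.17. Within the lower read class the difference was 0.04, and within the higher class it was 0.92.

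Il6ra, the chain that makes a cell respond to IL-6 (chr3:89864059-89913196, minus strand), was measured at 3.04, 3.61 and 10.1 CPM in click and 7.31, 5.56 and 15.7 CPM in EDC. Click replicate 3 lay above EDC replicates 1 and 2. The log2 fold change was -0.77 (SE 0.58, edgeR adjusted p = 0.520), or -1.52 without click replicate 3. The difference was -1.56 within the higher and -0.0024 within the lower read class. An antisense gene, Gm42809, overlaps Il6ra but held 6 reads in click replicate 3 and 0 elsewhere.

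Osmr, the partner of gp130 for oncostatin M (chr15:6813577-6874969, minus strand), stood at 6.59, 9.43 and 8.35 CPM in click and 13.7, 8.66 and 15.6 CPM in EDC. EDC replicates 1 and 3 were the 2 highest libraries and EDC replicate 2 lay among the click values. The log2 fold change was -0.64 (SE 0.28, edgeR adjusted p = 0.332), a ratio of 1.56. The difference was -0.63 within the higher read class and -0.22 within the lower.

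Lifr, the partner for leukaemia inhibitory factor (chr15:7090614-7197489, plus strand), varied widely within both groups. It was at 31.4, 35.8 and 7.77 CPM in click and at 6.87, 42.9 and 5.59 CPM in EDC. Click replicates 1 and 2 and EDC replicate 2 were high and the other 3 libraries low, a division that cut across both groups. Its log2 fold change was 0.44, small beside that spread (SE 0.89, edgeR adjusted p = 0.821). It became -0.06 when library totals replaced TMM factors and -0.16 in the 4 libraries without Xist reads, and 1.97 without EDC replicate 2. Within the read classes the difference was 2.52 in the higher and -1.45 in the lower, in opposite directions.

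The same division appeared in the ratio of the 2 partner chains, taken per kilobase of exon. Osmr to Lifr was 0.187 and 0.234 in click replicates 1 and 2 and 0.180 in EDC replicate 2, where Lifr prevailed. It was 0.956 in click replicate 3, where the chains were level, and 1.77 and 2.48 in EDC replicates 1 and 3, where Osmr prevailed. The ratio is unaffected by library scaling, and its groups overlapped. The libraries with the highest Osmr to Lifr ratio were also those with the most Il6 and Osm reads.

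Socs3, the feedback inhibitor (chr11:117966079-117970047, minus strand), was at 9.78, 11.5 and 16.6 CPM in click and 24.6, 13.4 and 38.0 CPM in EDC. EDC replicates 1 and 3 were higher than all click libraries, and click replicate 3 was above EDC replicate 2. The means of 12.6 ± 3.57 and 25.3 ± 12.3 CPM (SD, n = 3) gave a log2 fold change of -1.003 (SE 0.40 and, by edgeR, adjusted p = 0.313). It was -0.59 without EDC replicate 3. The difference was -1.41 within the higher read class and -0.07 within the lower, so that the lower class gave almost none.

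Stat3, the factor that gp130 activates (chr11:100885098-100939540, minus strand), varied little. Its level was 39.9, 40.5 and 54.9 CPM in click and 45.0, 46.4 and 66.0 CPM in EDC, and replicate 3 was the highest library in each group. The log2 fold change was -0.22 (SE 0.23, edgeR adjusted p = 0.644), and the difference was -0.43 within the higher read class and 0.01 within the lower. Stat5a overlaps Stat3 on the other strand, and since the use of strand is not given, some reads may be shared. The ratio of Socs3 to Stat3 per kilobase of exon was 0.808, 0.934 and 0.998 in click and 1.80, 0.953 and 1.90 in EDC. EDC replicates 1 and 3 were again apart from the other 4 libraries. The counts are of mRNA, and phosphorylation of Stat3 was not measured.

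Between the 2 libraries with Xist reads, click replicate 1 and EDC replicate 1, the ligands had log2 CPM differences of -4.34 (Il6), -3.04 (Lif) and -3.31 (Osm), and Socs3 one of -1.33. Among the 4 libraries without such reads the differences were -1.72, -2.01, -1.35 and -0.71, smaller but of the same sign. Click replicate 1 held 0 reads of Il6, 4 of Lif and 3 of Osm. The sizes for the ligands therefore depend on the prior count of 2 that is added before the log is taken. Of the receptor chains, Il6ra gave -1.25 and -0.63, Osmr -1.05 and -0.39, Il6st 0.06 and 0.78, and Lifr 2.19 and 0.10, in the same order. Stat3 gave -0.17 and -0.23.

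**Figure D2:**
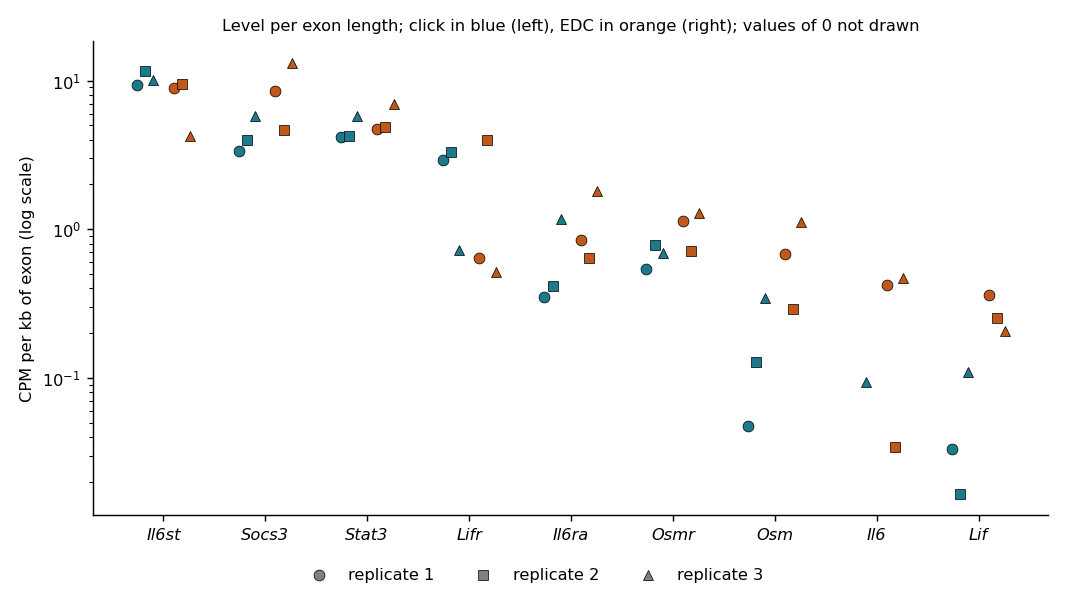
The level of each gene per kilobase of exon (log axis) is drawn for the 3 click and 3 EDC libraries, in order of the mean over all 6, and the 2 values of 0 for Il6 are not drawn. Il6st, Socs3 and Stat3 lie above Lifr in every library, and the 3 ligands are at the low end.

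Compared per kilobase of exon, the mean over 6 libraries was 8.94 CPM for Il6st, 6.56 for Socs3, 5.12 for Stat3, 2.02 for Lifr, 0.874 for Il6ra and 0.857 for Osmr. The ligands were lowest, at 0.437 for Osm, 0.170 for Il6 and 0.164 for Lif. The order differed between the groups. In click the mean of Stat3 (4.73) was above that of Socs3 (4.37) and Lif (0.0535) above Il6 (0.0313). In EDC the mean of Socs3 (8.76) was above that of Il6st (7.53). That order of the EDC means rested on EDC replicate 3, with Socs3 at 13.1 and Il6st at 4.23. Il6st was above Socs3 in EDC replicates 1 and 2. Over all 6 libraries, ranges of neighbours in the pooled order overlapped at each step but 1. The lowest Stat3 value (4.19) lay above the highest Lifr value (3.98). The chain common to the family was thus present at 3.30 to 17.1 times the level of Osmr, in each library.

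Other genes of the pathway did not share a direction. Of 41 listed ligands, receptors, kinases, adaptors, inhibitors, sheddases and regulators of Il6 mRNA, 37 were tested, 20 were lower and 17 higher in click, and the median log2 fold change was -0.09. None passed the adjusted edgeR threshold. At an unadjusted p under 0.05, 2 were lower and 4 higher, where the shares of all genes were 8.0% and 7.22%. The groups did not overlap in 5 genes, of which Il11ra1 was lower and Stat5b, Ptpn11, Socs1 and Socs6 were higher, where the shares of all genes were 12.4% and 9.84%. With library totals in place of TMM factors 27 of the 37 were lower, as were 81.5% of all genes, against 48.7% with TMM.

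Among 5 other ligands tested, none had an unadjusted p under 0.05. The smallest was that of Ebi3, a subunit of IL-27, with means of 0.964 ± 0.865 (click) and 2.53 ± 1.76 CPM (EDC; SD, n = 3). Its log2 fold change was -1.37 (SE 0.77, edgeR adjusted p = 0.408), or -0.64 without EDC replicate 3 and -2.42 without click replicate 3. Clcf1, a cardiotrophin-like ligand that acts through Lifr, went the other way at 2.95 ± 2.29 against 1.497 ± 0.702 CPM, with its highest value in click replicate 3, without which its log2 fold change went from 0.99 to 0.16. Il11, Il27 and Il31 were too low to test. Of 3 other receptors tested, Il11ra1, the receptor for IL-11, was at 34.9, 28.0 and 35.0 CPM in click and 47.3, 37.5 and 44.7 CPM in EDC. All click values lay below all EDC values (log2 fold change -0.40, SE 0.18, edgeR adjusted p = 0.341).

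The kinases that gp130 uses differed little. Jak1 had a log2 fold change of 0.23 (SE 0.24) and Jak2 of 0.32 (SE 0.20), and both turned negative with library totals (-0.22 and -0.12). Tyk2 lay on the other side of 0, at -0.22 (SE 0.32). Stat5b, which growth hormone and other cytokines activate, was at 148, 168 and 110 CPM in click and 84.6, 105.3 and 77.2 CPM in EDC. Its groups did not overlap (log2 fold change 0.68, SE 0.23, edgeR adjusted p = 0.298), and library totals in place of TMM factors gave 0.17. Ptpn11, a phosphatase that gp130 recruits, had a log2 fold change of 0.44 (SE 0.20). Shc1, an adaptor of the Ras pathway, was lower in click at -0.68 (SE 0.28, edgeR adjusted p = 0.323), with click replicate 3 above EDC replicate 2.

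Directions were mixed among the other inhibitors. Cish, a feedback gene of Stat5 signalling, was at 4.31, 70.9 and 33.5 CPM in click and 3.41, 7.997 and 2.73 CPM in EDC. Click replicate 1 lay below EDC replicate 2, so the groups overlapped, and the log2 fold change was 2.95 (SE 0.94, edgeR adjusted p = 0.298). Leaving out click replicate 2 gave 1.99, and leaving out EDC replicate 2 gave 3.54. Cish was the only one of these 37 genes that DESeq2 called (adjusted p = 0.0152). Socs2, which damps growth hormone signalling, was at 24.1 ± 12.4 against 11.3 ± 5.60 CPM (log2 fold change 1.09, SE 0.46, edgeR adjusted p = 0.328). Socs6 was at 30.8, 49.5 and 31.9 against 23.3, 24.9 and 27.1 CPM, with no overlap (log2 fold change 0.58, SE 0.23, edgeR adjusted p = 0.314). With library totals its log2 fold change was 0.07. Socs1, an inhibitor of Janus kinases, had 23 to 47 reads in every library and a log2 fold change of 0.98 (SE 0.46). Of 12 inhibitors 6 were higher and 6 lower. Zfp36, whose product promotes decay of cytokine mRNA, stood at 14.4 ± 8.18 against 35.4 ± 17.2 CPM, lower in click (-1.30, SE 0.51, edgeR adjusted p = 0.312).

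Genes known as targets of Stat3 or of the family lay mostly on the low side in click. Of 22 tested, 20 had a negative log2 fold change and the median was -0.57. Vegfa, a vessel growth factor (0.61, SE 0.34), and Ccnd1, a cyclin (0.04, SE 0.25), were the others. None passed the adjusted edgeR threshold, 8 were lower at an unadjusted p under 0.05 (8.0% of all genes) and none was higher (7.22%). In 8 the groups did not overlap, all lower in click (12.4% of all genes). DESeq2 called 4 of the 22 as lower (2.27% of all genes), namely Junb, Fos, Lcn2 and Lbp. Several of the targets answer to NF-kB and other signals too.

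Junb, which forms AP-1 with a Fos protein, was at 9.45, 6.08 and 17.9 CPM in click and 30.1, 24.4 and 41.7 CPM in EDC (log2 fold change -1.53, SE 0.42, edgeR adjusted p = 0.298). Lbp, a binding protein for bacterial lipopolysaccharide, was at 3.69, 3.21 and 4.38 CPM in click and 8.45, 5.98 and 7.09 CPM in EDC (-0.93, SE 0.26). Lcn2, an iron-sequestering protein of neutrophils and inflamed tissue, was at 0, 1.06 and 0.127 against 8.77, 1.44 and 8.82 CPM (-4.03, SE 1.29). Hp, haptoglobin, was at 1.16, 3.17 and 17.95 against 67.2, 24.1 and 145 CPM (-3.40, SE 1.10). In each of these 4 all click values lay below all EDC values, and EDC replicate 2 was the lowest EDC library. The size rested on single libraries in 2 of them, since Lcn2 was at -6.47 without click replicate 2, and Hp ranged from -5.18 (click replicate 3 left out) to -2.61 (EDC replicate 3 left out).

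The remaining 4 with an unadjusted p under 0.05 were Fos, Saa3, Timp1 and Hif1a. Fos, an AP-1 subunit, gave a log2 fold change of -2.68 (SE 0.90) and Timp1, an inhibitor of metalloproteinases, -1.68 (SE 0.68). Hif1a, the oxygen-regulated factor, gave -1.03 (SE 0.38), and the groups did not overlap in any of these 3. Saa3, an acute phase protein, was at 71.6, 2.46 and 433 CPM in EDC and at 4.56, 0 and 4.13 in click, so its value rests on EDC replicates 1 and 3. Its log2 fold change of -5.86 became -3.67 without EDC replicate 3 and -6.50 without EDC replicate 2. Bcl6, a transcriptional repressor, was the eighth target without overlap, at 28.8 ± 1.92 against 42.6 ± 14.97 CPM (-0.57, SE 0.26). Pim1, a kinase, was at 10.8 ± 5.27 against 17.6 ± 14.1 CPM with overlap, and its log2 fold change of -0.71 turned to 0.19 when EDC replicate 3 was left out. Targets with the smallest differences were Ccnd1, above, Lrg1 and Myc, with Myc at 7.15 ± 2.42 against 7.998 ± 3.21 CPM and Lrg1 at 8.51 ± 1.25 against 8.66 ± 3.24 CPM.

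**Figure D3:**
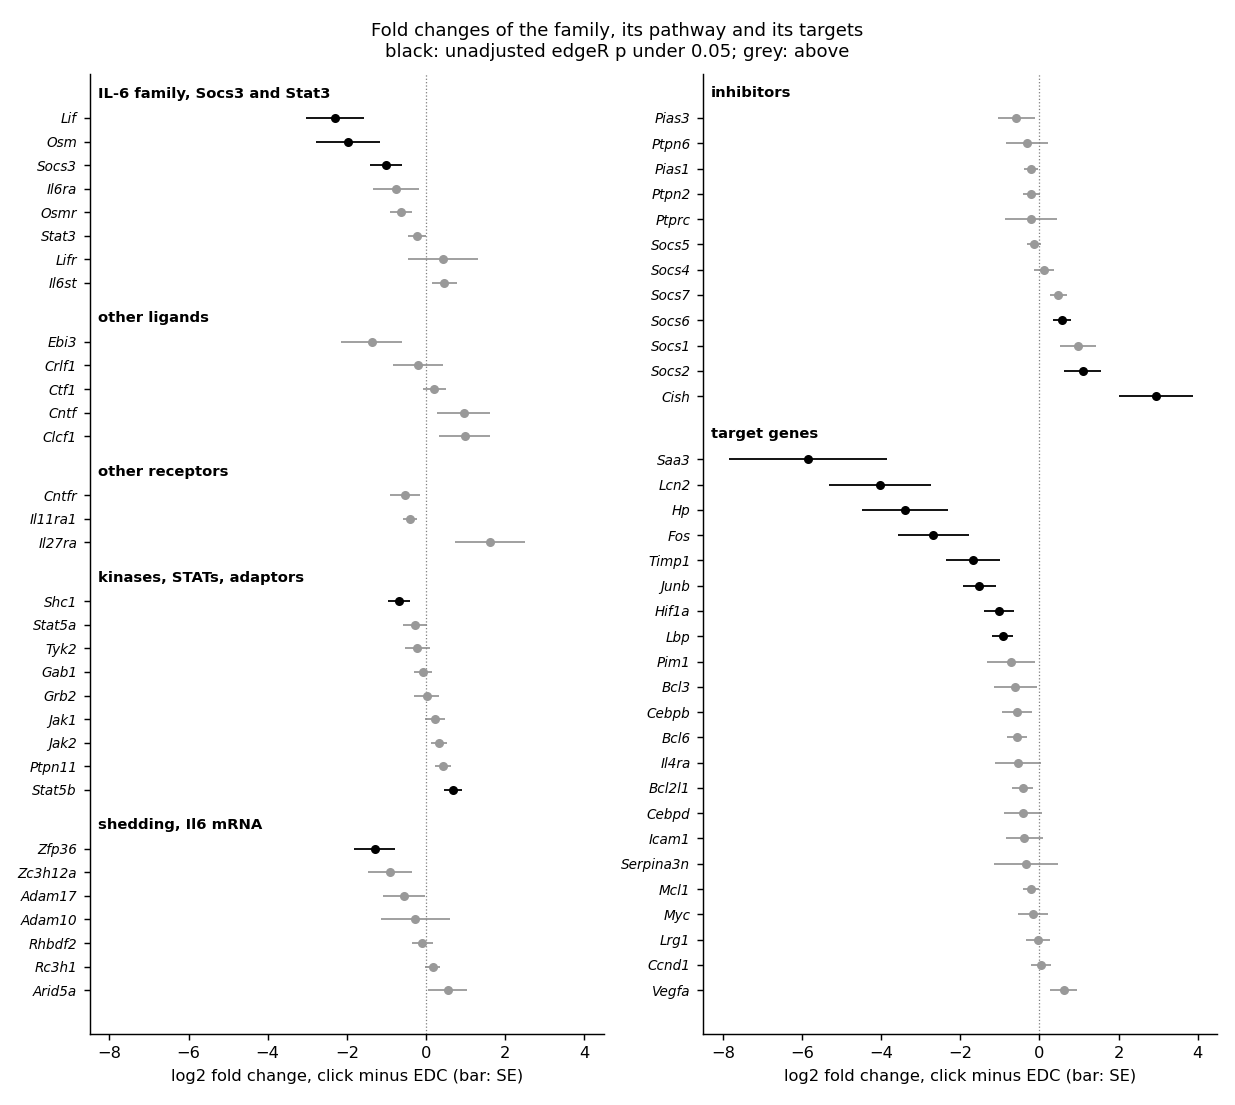
Points give the log2 fold change of click minus EDC and bars its SE from edgeR, for the tested genes of each list that are reported here, with black for an unadjusted p under 0.05 and grey for the rest. Lif, Osm, Socs3, Shc1, Zfp36 and 8 of the 22 targets lie left of 0 in black, and Stat5b, Socs6, Socs2 and Cish lie right of 0 in black.

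Neutrophil and macrophage markers were lower in click, as were the ligands and Socs3. Most T and B cell markers had a positive log2 fold change, but they were not high in every click library. The 10 neutrophil markers summed to 187 and 181 CPM in EDC replicates 1 and 3 and to 6.48 to 16.5 CPM in the other 4 libraries, the same division as for Il6, Osm, Socs3 and the Socs3 to Stat3 ratio. The defining marker Ly6g had 38 and 31 reads in those 2 libraries and 0 in the other 4. All 9 neutrophil markers tested had a negative log2 fold change. The 10 macrophage markers summed to 157 to 1126 CPM in click and 1679 to 4042 in EDC, and 9 of 10 had a negative log2 fold change. The 8 T cell markers summed to 22.9, 39.0 and 243 CPM in click replicates 1, 2 and 3 and to 39.7 to 94.5 in EDC. Only click replicate 3 lay above the EDC sums, and click replicates 1 and 2 lay below them, while 7 of 8 markers had a positive log2 fold change. B cell markers summed to 65.2, 114 and 375 CPM in click replicates 1, 2 and 3 and to 29.0 to 107 in EDC. Click replicate 1 lay below EDC replicate 1, and 4 of 5 markers tested had a positive log2 fold change. Schwann cell markers summed to 82.5 to 224 CPM in click and 32.6 to 59.0 in EDC, with 4 of 4 positive. Of the 8 muscle fibre markers, 7 were positive. The mitochondrial share of reads was 30.2%, 27.0% and 18.9% in click and 14.8%, 17.8% and 16.8% in EDC. It was highest in the 2 click libraries where Il6, Lif, Osm, Il6ra, Socs3 and Stat3 were lowest. Fibroblast markers summed to 589 to 3579 CPM in click and to 3928 to 6245 in EDC, and endothelial markers to 189 to 224 and 195 to 224. The part of these cells, and of the mitochondrial share, in the differences of the members was not tested.

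**Figure D4:**
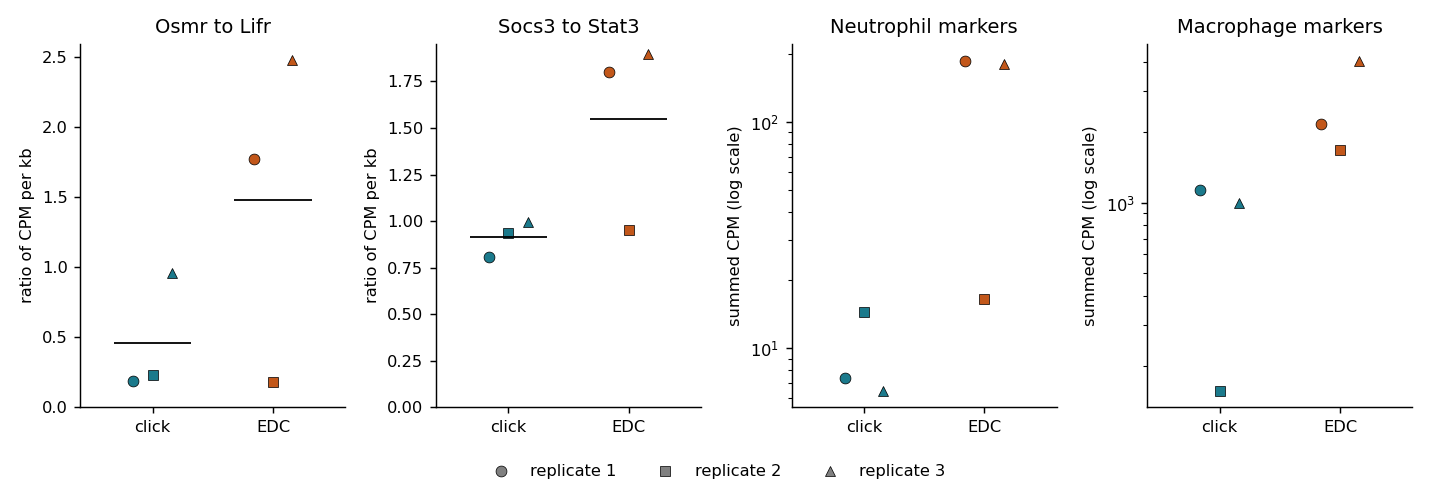
The first 2 panels plot the Osmr to Lifr and Socs3 to Stat3 ratios per kilobase of exon in each library (linear axes, line at the group mean), and the others the summed CPM of 10 neutrophil and 10 macrophage markers (log axes). EDC replicates 1 and 3 are highest in all 4 panels, and EDC replicate 2 lies with the click libraries for both ratios and near them for neutrophil markers.

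The genes whose pattern over the 6 libraries was most like that of Lif, out of 12102 genes whose log2 CPM averaged 1 or more, were P3h4, Galk1, Evc2, Abcd4 and BC017158. Their Pearson correlations with Lif were 0.989 to 0.995, on log2 CPM over 6 libraries that share their depth and composition. Their log2 fold changes were smaller than that of Lif, from -0.94 for P3h4 to -0.24 for Evc2.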

How the data were processed

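The deposited table holds whole-number read counts per gene for 6 libraries, made by the authors on the mm10 build, per the submitters' processing notes. Per the labels' protocols, RNA was prepared with a column kit and libraries with a SMARTer kit. For aligner, counting program, annotation and strandedness, the sources used here name nothing. Of 55335 lines, 3225 without a symbol (0.0631% to 0.0996% of reads) were left out, and for 80 repeated symbols the line with more reads took the name.

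Click was compared with EDC by the two-sided quasi-likelihood test in edgeR 4.0.16 (R 4.3.3) over 15797 genes that passed its default filter (10 reads in 3 libraries of median size), with TMM factors, robust dispersion, no covariate and Benjamini-Hochberg adjustment. CPM is scaled by TMM factors; the SE is the log2 fold change divided by the square root of F. Differences within read class or sex are of log2 CPM with a prior count of 2. Exon lengths are from GENCODE M21 and promoters from RefSeq, which matched 8 of 9 members. The fit was tested on simulated data. DESeq2 1.42.0, limma 3.58.1 and other alternatives are described in the closing section.

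Each group is described as 3 mice, and a library is taken as 1 animal. The counts of library pairs differed by 61.8 to 470 times the sampling variance. The members, lists and tests were chosen with earlier results of these data known. The rule names all members, up to 4 genes per list by smallest p (those under 0.05 unadjusted, or the smallest where none is), and the 5 genes most correlated with the leading member. Fos, Saa3, Timp1, Hif1a, Jak1, Jak2, Tyk2, Clcf1, Myc, Lrg1, Vegfa, Ccnd1, Ptpn11, Socs1, Bcl6, Pim1, Gdpd3 and Stat5a were named after their values were seen. A listed pathway gene is counted in the list totals but is not reported here.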

Additional observations from a re-analysis of the deposited data

How the results depend on the processing

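No member passed the adjusted edgeR threshold in any of 17 alternatives, DESeq2 and limma-voom included. The log2 fold changes of Lif (-3.41 to -1.80), Osm (-2.97 to -1.47), Socs3 (-1.47 to -0.59), Osmr (-1.14 to -0.42), Il6ra (-1.52 to -0.20), Stat3 (-0.67 to -0.02) and Il6st (0.02 to 0.67) kept their sign in every alternative that tested them. The value nearest 0 came with library totals for Il6st (0.016) and without EDC replicate 3 for Stat3 (-0.022). Lifr turned to -0.062 with library totals and -0.16 in male libraries alone (no Xist reads). Library totals moved the median of all genes to -0.45, the share of lower genes among those at an unadjusted p under 0.05 from 52.5% to 92.4%, the member median to -1.14, the pathway median to -0.60, and Jak1, Jak2, Ptpn11 and Ccnd1 to -0.22, -0.12, -0.049 and -0.37. Ccnd1 was also -0.060 with a term for read class and -0.20 to 0.16 with single libraries left out. Myc, near 0, turned to 0.20 in male libraries and ran from -0.43 to 0.20 with single libraries left out. Lrg1, also near 0, turned to 0.0016 with upper-quartile factors, 0.0045 by limma-voom, 0.022 with the replicate block and 0.14 with a term for read class, and ran from -0.24 to 0.32. Pim1 ran from -1.13 to 0.19 with single libraries left out, the latter without EDC replicate 3. The cause was not tested.

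Members at an unadjusted p under 0.05 numbered 3 in the main fit, where the shares of all genes were 8.0% lower and 7.22% higher in click. The count was 1 with a filter at a mean of 50 reads (which left out Lif and Osm), 1 by limma-voom and 1 with a term for mt-Atp6 read class. It was 0 in male libraries alone. Leaving out single libraries gave 0 to 6, the lowest without EDC replicate 1 and the highest without EDC replicate 2. It gave 1 without click replicate 1 or EDC replicate 3 and 5 without click replicate 3. The share of all genes is not given for these alternatives, so whether the counts differ from it cannot be told. The pathway median was -0.144 to 0.0663 (0.0044 without click replicate 2, 0.0663 without EDC replicate 3) and the target median -1.09 to -0.28 when libraries were left out.

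The 1 gene called in all became 606 by DESeq2, 0 by limma-voom, 0 with sex or read class as a covariate, 0 in male libraries, and 0 to 7 with single libraries left out. With the replicate block 0 genes were called, and 4 members had an unadjusted p under 0.05, a count for which the share of all genes is likewise not given. Deviations of same-numbered libraries correlated at -0.05, 0.19 and 0.28, and those of differently numbered libraries at -0.296 to 0.0876. With so few libraries, whether the numbers pair them cannot be told from these values.

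The ligands had at most 128 reads in a library, and their levels are limited by that depth.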
